A study of Mus musculus with 6 samples.

Results

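The members described here are the genes of the mitochondrial ribosomal proteins, taken as every row of the deposited counts whose symbol is Mrpl or Mrps followed by a number and at most 1 letter. Of 78 such symbols, 49 for the large (Mrpl) and 29 for the small subunit (Mrps), 75 had at least 10 counts in at least 3 libraries and form the set, 48 of the large and 27 of the small subunit, out of 55433 genes listed. The rule leaves no member near its threshold. The member with the fewest counts was Mrpl23, with 159 to 250 a library, and the 3 symbols left out, Mrpl53, Mrps10 and Mrps23, were listed at 0 counts in all 6 libraries. A count of 0 allows up to 3 counts, or 0.0583 to 0.0691 CPM (counts scaled to library size) in these libraries, for counting error only. Of the 790 exonic bases of Mrpl53, 695 are shared with Gm42688 on the same strand. Whether the zeros of these 3 symbols reflect absent RNA or the way reads were assigned to genes was not tested. All 75 members were among the 17711 genes tested.

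RNA came from whole spinal cords of C57BL/6J mouse embryos at stage E13.5, when most spinal motor neurons have been born and gliogenesis is starting. The control group is 3 embryos of genotype NFIA-ff, and the NFIAcKO group is 3 embryos of genotype NFIA-ff;Nestin-cre, so both groups carry the floxed NFIA allele and the second also carries the cre transgene. Nestin-cre drives recombination in neural progenitors and their descendants, so microglia, blood and vessel cells in the dissected cord are not its main target, and the transgene cannot be told apart from the deletion because the control embryos have no cre. The series asks what the transcription factor NFIA does in motor neuron development, and here the comparison is read for 1 protein machine.

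Mitochondrial ribosomes translate the small set of mRNAs encoded by mitochondrial DNA, all of which specify membrane subunits of the respiratory chain and the ATP synthase. Their RNAs come from the mitochondrial genome, whereas every protein of the large and small subunits is encoded in the nucleus, made in the cytosol and imported. Some of these proteins sit where a homologue sits in the bacterial ribosome, and the others hold places that are particular to mitochondria. Loss of single members causes inherited mitochondrial diseases, which often affect heart and brain.

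The members' promoters are shown first because promoter letters are a feature that the rule did not use. The RefSeq promoter table of GRCm38.p6, which holds 250 bases before and 50 after each annotated start, matched 66 of the 75 members. Searched on both strands, the letters GCGCA, any base, GCGC of nuclear respiratory factor 1 (NRF1), a regulator of nuclear genes for mitochondrial proteins, were in 13 of 66 members (19.7%), in 9.97% of tested genes with a promoter and in 4.6% of all 32851 promoters in the table. The letters CCGGAAG, read by ETS factors such as the GA-binding protein (NRF2), were in 24 members (36.4%), against 17.3% and 8.86%. AAGATGGCG, read by YY1, was in 8 members (12.1%), against 2.99% and 1.4%. Either of the first pair of motifs was in 13 of the 26 matched members that fell in the test below and in 20 of the 40 that did not pass, which is the same share, beside 25% of tested genes and 12.6% of all promoters. The full NFI letters TTGGC and GCCAA, 5 bases apart, were in no member promoter, in 0.0481% of tested genes and in 0.0365% of all promoters. The shorter TTGGCA was in 7 members (10.6%), against 13.9% and 14.1%. It was in 4 of the 26 matched members that fell and in 3 of the 40 that did not pass. Members and tested genes were counted by gene, with a match in any of its promoters, and all promoters were counted singly. A match is a run of letters, not a bound site. The stretches below lie upstream of the start and outside annotated exons, 5′ to 3′ on the gene's strand, with NRF1 or ETS letters in capitals. CTTCCGG is the ETS motif on the other strand, and no match in capitals overlaps another. They were picked as short stretches around a match from members that fell (the first 5) and that did not pass (the last 2).
Mrpl12 (chr11:120484526-120484595, plus strand, NRF1): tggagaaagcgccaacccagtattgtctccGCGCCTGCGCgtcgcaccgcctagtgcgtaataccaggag
Mrpl9 (chr3:94443278-94443317, plus strand, NRF1): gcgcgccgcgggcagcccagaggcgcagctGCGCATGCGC
Mrpl43 (chr19:45006443-45006528, minus strand, ETS): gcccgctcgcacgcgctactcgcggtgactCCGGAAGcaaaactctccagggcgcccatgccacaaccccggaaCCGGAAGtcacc
Mrpl52 (chr14:54426832-54426898, plus strand, ETS): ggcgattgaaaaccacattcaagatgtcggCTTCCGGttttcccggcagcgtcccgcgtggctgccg
Mrps22 (chr9:98601680-98601720, minus strand, ETS): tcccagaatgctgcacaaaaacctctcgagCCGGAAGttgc
Mrpl45 (chr11:97315566-97315715, plus strand, NRF1): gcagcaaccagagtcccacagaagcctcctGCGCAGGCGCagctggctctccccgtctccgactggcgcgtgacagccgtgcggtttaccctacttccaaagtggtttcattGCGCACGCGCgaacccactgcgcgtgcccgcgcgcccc
Mrpl34 (chr8:71464859-71464925, plus strand, ETS): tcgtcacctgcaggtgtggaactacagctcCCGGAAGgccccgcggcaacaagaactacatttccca

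Counts assigned to genes were 43393053 to 51465763 per library, and the 5 summary lines of each file held 16.9 to 19.4% of its total. Nfia, the targeted gene, was counted at 60.1, 59.1 and 79.2 CPM in the libraries labelled control and at 106, 108 and 119 CPM in those labelled NFIAcKO, so it goes against the label. The difference in Nfia passed in each of the 18 fits other than the main edgeR test (adjusted p from 2.46e-13 to 0.0413). Reads from exons that a deletion would leave in place are counted too, so the deletion is not tested by this value. Whether the labels of the groups were exchanged was not tested either. Every direction below is that of the libraries labelled NFIAcKO against those labelled control, and an exchange would reverse it. Spinal cord markers summed to 1492 to 1839 CPM in control and 1767 to 2101 CPM in NFIAcKO libraries (2 of 10 rose). Xist was high in replicate 2 of each group alone.

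Members of both subunits were lower in the libraries labelled NFIAcKO. As counted, 30 of the 75 members fell and 0 rose (edgeR's quasi-likelihood test on TMM-scaled counts, Benjamini-Hochberg adjusted p under 0.05 over all tested genes, as for every call below), whereas 6.08% of all tested genes fell and 7.86% rose. For the count of 0, no member was higher at an unadjusted p under 0.05 either, and DESeq2 and limma-voom also called 0 higher. The large subunit had 20 of 48 members that fell (41.7%) with a median log2 fold change of -0.28, and the small subunit had 10 of 27 (37.0%) with a median of -0.26, beside a median of -0.008 over all tested genes. Of the 75 members, 72 had a log2 fold change below 0. The falls of the 30 that passed ranged from 0.26 to 0.75 on the log2 scale, which is 59.6 to 83.3% of the control level. In every one of the 30 the 3 NFIAcKO libraries lay below the 3 control libraries, as they did in 17 of the 45 that did not pass. That makes 47 of 75 members, beside 16.1% of all tested genes with no overlap in that direction and 17.3% in the other. DESeq2 called 37 members lower, limma-voom 27, upper quartile scaling 34 and the replicate block 32, beside 8.31%, 5.44%, 8.1% and 6.32% of all genes. In whole tissue, fewer cells with a high level and less RNA per cell cannot be told apart.

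**Figure D1:**
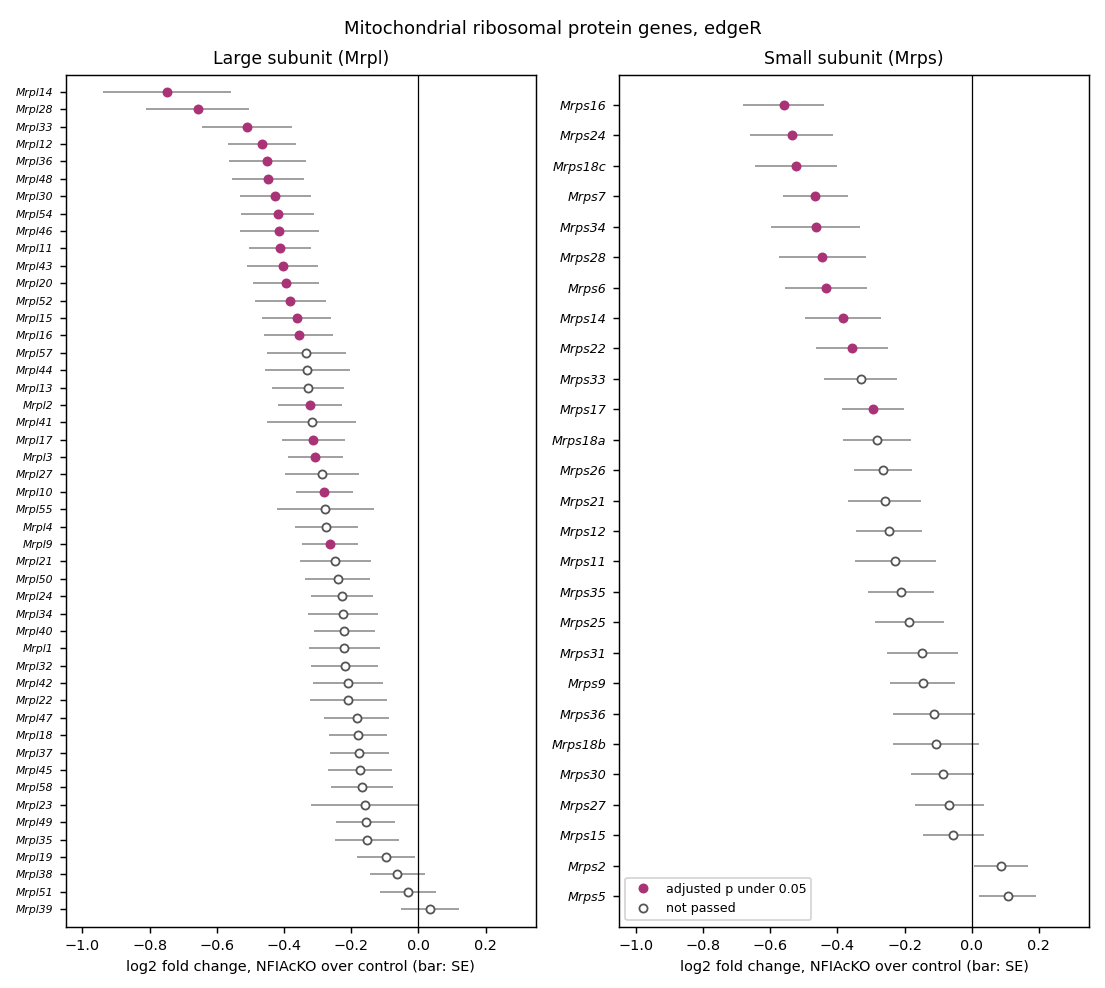
Log2 fold change of each of the 75 members (NFIAcKO over control, x axis) with its standard error (bars), large subunit left and small subunit right, filled where the adjusted p is under 0.05. Of the points, 72 lie left of 0, the 30 filled points run from -0.26 to -0.75, and Mrpl39, Mrps2 and Mrps5 lie right of 0.

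How many members passed rested on single libraries. With control replicate 3 left out, 49 members fell (background 13.55%), and with control replicate 1 or 2 left out, 3 and 8 did (backgrounds 1.21% and 2.28%). Without NFIAcKO replicate 1, 2 or 3 the counts were 0, 9 and 1 (backgrounds 0.764%, 2.37% and 0.824%). In the edgeR fit that left 0, 37 members were lower and 0 higher at an unadjusted p under 0.05. The direction moved less: 70 to 73 of the 75 log2 fold changes were below 0 in the 6 fits, with medians from -0.20 to -0.33. Mrps7 kept its call in 5 of the 6 fits, Mrpl11 and Mrps16 in 4, and 21 of the 30 in 1 fit.

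The bacterial homologues of the large subunit, which build its RNA-bound core, had 15 of 29 members that fell, beside 6.08% of all genes. Their median log2 fold change was -0.29. Mrpl12, which forms the flexible stalk that recruits translation factors, stood at 74.4, 83.4 and 61.3 CPM in control replicates 1 to 3 and at 53.1, 55.8 and 49.9 CPM in NFIAcKO replicates 1 to 3. The lowest control library was above the highest NFIAcKO library, and control replicate 2 was the highest of all. Its mean fell from 73.0 ± 11.1 to 52.9 ± 2.96 CPM (SD, n = 3 each), a log2 fold change (SE) of -0.47 (0.10) with an adjusted p of 0.0117. Mrpl12 (ENSMUSG00000039640.7) spans bases 120484613 to 120489065 of chromosome 11 (GRCm38, plus strand), and the non-coding Gm16755 overlaps its exons on the other strand. Mrpl11, a protein of the stalk base, was measured at 61.8, 71.6 and 58.5 CPM in control and 48, 51.1 and 45.2 CPM in NFIAcKO libraries. The groups did not overlap, and the log2 fold change was -0.41 (SE 0.09, adjusted p = 0.012). Mrpl11 (ENSMUSG00000024902.5) spans bases 4962147 to 4966999 of chromosome 19 (plus strand) and overlaps no other annotated exon.

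The members with the largest differences were also in this class. Mrpl14, which faces the small subunit and is a docking site of assembly factors, had 19.8, 24.7 and 13.2 CPM in control and 11.5, 12.7 and 10.2 CPM in NFIAcKO libraries. Control replicate 3 lay close to the NFIAcKO libraries while the other two controls were well above. Its log2 fold change was -0.75 with a wide error (SE 0.19, adjusted p = 0.0265), and the adjusted p was 1.27e-05 without control replicate 3 and 0.102 without NFIAcKO replicate 1. Mrpl28 had 57.1, 70.5 and 44 CPM in control and 36.8, 40.5 and 31.6 CPM in NFIAcKO libraries (log2 fold change -0.66, SE 0.15, adjusted p = 0.021), again with control replicate 3 the lowest control. Mrpl3, a core protein close to the peptidyl transferase centre, differed less but more evenly, with 64.9, 71.5 and 62.0 CPM in control and 52.5, 56.2 and 51.8 CPM in NFIAcKO libraries (-0.31, SE 0.08, adjusted p = 0.0256). Mrpl14 and Mrpl3 share exonic bases with Tmem63b on the other strand and with Gm38077 on the same strand. Mrpl30 stood at 50.1, 58.6 and 42.3 CPM in control and 38.4, 37.6 and 36.5 CPM in NFIAcKO libraries, Mrpl20 at 53.3, 63.3 and 48.9 against 42.7, 44.1 and 39.3 CPM, and Mrpl36 at 17.2, 19.7 and 16.6 against 14.3, 12.1 and 12.7 CPM. None of the 3 overlapped between groups, and their log2 fold changes were -0.43, -0.39 and -0.45 (adjusted p = 0.018, 0.0185 and 0.02). Mrpl36 shares exonic bases with Ndufs6 on the other strand. The 14 homologues of this class that did not pass had log2 fold changes from -0.33 (Mrpl13) to -0.10 (Mrpl19), all below 0.

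The mitochondria-specific proteins of the large subunit sit mostly on its surface and in its central protuberance. The members Mrps30 and Mrps18a are counted in this class because the proteins belong to the large subunit despite their symbols. In the class 5 of 21 fell, beside 6.08% of all genes, and the median was -0.24. The 5 were Mrpl48, Mrpl54, Mrpl43, Mrpl52 and Mrpl46. Mrpl48 stood at 37.6, 41.6 and 32.3 CPM in control and 26.7, 29.9 and 25.3 CPM in NFIAcKO libraries, without overlap, a log2 fold change (SE) of -0.45 (0.11) with an adjusted p of 0.0155. Part of its exons overlaps Rab6a on the other strand, so some of its counts are uncertain. Mrpl43 was even within the groups, with 14.9, 16.1 and 15 CPM in control and 11.6, 11.7 and 11.4 CPM in NFIAcKO libraries (-0.40, SE 0.11, adjusted p = 0.0226), and overlaps Twnk on the other strand. At the other end were Mrpl39, which resembles a tRNA synthetase, and Mrpl51. Mrpl39 had 41.8, 37.8 and 42.1 CPM in control and 39.5, 44 and 41.2 CPM in NFIAcKO libraries. The ranges overlapped in part, and the log2 fold change was 0.03 (SE 0.09, adjusted p = 0.831). Mrpl51 had 45.6, 46.7 and 43 CPM against 41.9, 46.8 and 43.6 CPM, which overlap, and was at -0.03 (SE 0.08, adjusted p = 0.84). Mrps30 was at -0.09 (SE 0.09, adjusted p = 0.577). Mrpl45, which anchors the ribosome at the inner membrane, and Mrpl58, a peptidyl-tRNA hydrolase built into the subunit, were both at -0.17 and did not pass (adjusted p = 0.245 and 0.248). The shares of this class and of the bacterial homologues were not tested against each other.

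**Figure D2:**
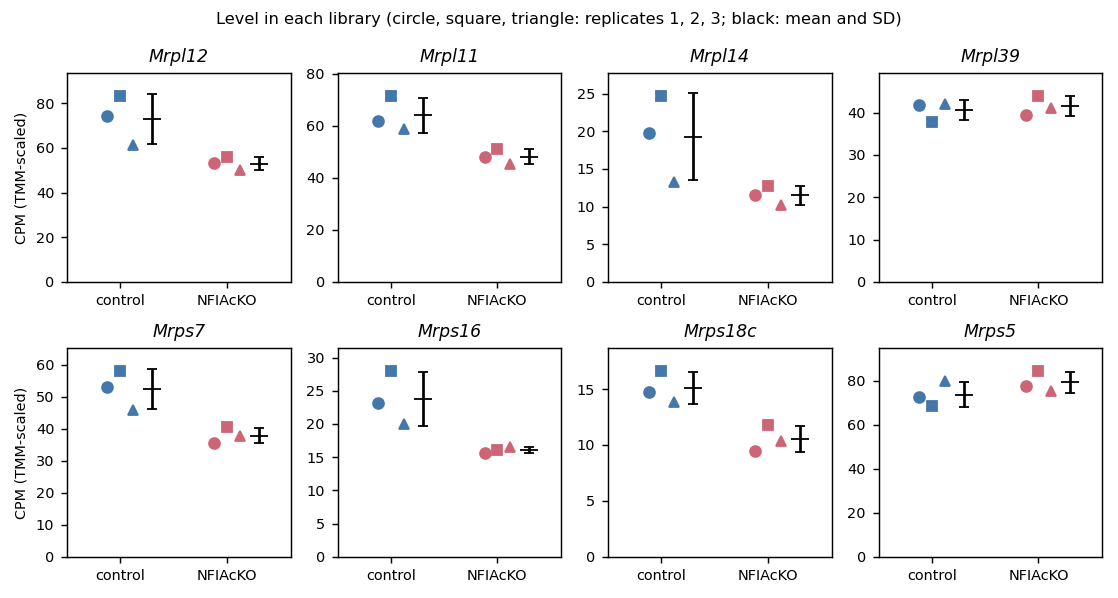
CPM of 8 members in each of the 6 libraries (circle, square and triangle for replicates 1 to 3, black for the group mean and SD, y axes from 0). For Mrpl12, Mrpl11, Mrpl14, Mrps7, Mrps16 and Mrps18c every NFIAcKO library lies below every control library, while for Mrpl39 and Mrps5 the groups overlap.

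In the small subunit, 8 of 15 bacterial homologues fell, beside 6.08% of all genes, with a median log2 fold change of -0.30. Mrps7, a protein of the subunit's head, had the smallest adjusted p of all members. It stood at 52.9, 58.2 and 45.8 CPM in control and 35.5, 40.4 and 37.7 CPM in NFIAcKO libraries, without overlap. Its mean fell from 52.3 ± 6.22 to 37.9 ± 2.46 CPM (SD, n = 3 each), a log2 fold change (SE) of -0.47 (0.10) with an adjusted p of 0.0096. Mrps7 (ENSMUSG00000046756.10) spans bases 115603925 to 115608036 of chromosome 11 (plus strand), and its exons overlap Gga3 and Mif4gd on the other strand. Of the 6 fits without a library, its call was lost only without NFIAcKO replicate 1 (adjusted p = 0.0638).

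Mrps16, a protein of the subunit's body, was at 23.2, 28.1 and 20.01 CPM in control and 15.7, 16.1 and 16.6 CPM in NFIAcKO libraries. The NFIAcKO libraries lay within 1 CPM of each other and below every control, and the log2 fold change was -0.56 (SE 0.12, adjusted p = 0.011). Mrps16 (ENSMUSG00000049960.4) spans bases 20389304 to 20393634 of chromosome 14 (minus strand) and overlaps no other exon. Mrps24, which lies where mRNA enters, had 30.1, 37.5 and 25.9 CPM in control and 22.6, 22 and 19.9 CPM in NFIAcKO libraries (-0.54, SE 0.12, adjusted p = 0.0143), and overlaps Urgcp on the same strand. Mrps6, of the platform, had 23.7, 27.9 and 19.8 CPM against 17.7, 18.2 and 16.9 CPM and fell by 0.43 (SE 0.12, adjusted p = 0.0299). It overlaps Slc5a3 on the same strand. Mrps5, whose bacterial counterpart affects the accuracy of decoding, and Mrps2 were the only members of the subunit above 0. Mrps5 stood at 72.8, 68.5 and 80.0 CPM in control and 77.9, 84.8 and 75.7 CPM in NFIAcKO libraries, and Mrps2 at 45.1, 43.6 and 46.6 CPM against 45.7, 48.9 and 49 CPM. Their log2 fold changes were 0.11 (SE 0.08, adjusted p = 0.431) and 0.09 (SE 0.08, adjusted p = 0.512), not beyond the replicate error.

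Among the mitochondria-specific proteins of the small subunit, 2 of 9 fell (median -0.21), beside 6.08% of all genes. These were Mrps34, needed for a stable small subunit, and Mrps22, which is mutated in an inherited respiratory chain disease. Mrps22 had 34.1, 43.4 and 33.7 CPM in control and 27, 29.5 and 30.3 CPM in NFIAcKO libraries (-0.36, SE 0.11, adjusted p = 0.039). Mrps34 was at 9.38, 10.8 and 8.56 CPM against 6.38, 7.13 and 7.33 CPM (-0.46, SE 0.13, adjusted p = 0.0316), with exons that overlap Nme3 on the same strand and Mapk8ip3 on the other. Neither group overlapped the other in these 2 genes. The pentatricopeptide repeat protein Mrps27 was at -0.07 and did not pass (adjusted p = 0.716). Mrps36, by its symbol a member, encodes a part of the 2-oxoglutarate dehydrogenase complex rather than of the ribosome and was at -0.11 (SE 0.12, adjusted p = 0.584).

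The 3 Mrps18 genes derive from 1 bacterial protein and now occupy different places, Mrps18c at the position of the bacterial protein, Mrps18b elsewhere in the small subunit and Mrps18a in the large subunit. Mrps18b and Mrps18a are counted above as mitochondria-specific because of where they sit, although they share that bacterial ancestor. Mrps18c stood at 14.8, 16.7 and 13.9 CPM in control and 9.46, 11.7 and 10.3 CPM in NFIAcKO libraries. The groups did not overlap, and it fell by 0.52 on the log2 scale (SE 0.12, adjusted p = 0.0146), although it shares exonic bases with Gm43511 on the same strand. Mrps18a had 34.4, 44 and 34.9 CPM against 30.8, 31 and 31.5 CPM, also without overlap, and a log2 fold change of -0.28 that did not pass (SE 0.10, adjusted p = 0.0777). Mrps18b had 6.67, 7.54 and 7.81 CPM against 6.86, 6.85 and 6.75 CPM, which overlap, and a log2 fold change (SE) of -0.11 (0.13) with an adjusted p of 0.627. The call of Mrps18c was lost in both fits with a length and GC trend removed, which are described below. With summed exonic length, Mrps18c was at -0.19 (adjusted p = 0.271), Mrps18a at -0.30 (0.0954) and Mrps18b at 0.05 (0.857). With median transcript length they were at -0.33 (0.0577), -0.16 (0.292) and 0.03 (0.926). The differences between the 3 genes were not tested.

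Per length, the level of members spread widely, and the order depended on which length was used. Per kilobase of summed annotated exons, Mrpl34 was highest at 72.2 CPM per kb, then Mrpl41 at 51.1 and Mrpl12 at 41.1, and Mrps21 led the small subunit at 38.3. Per kilobase of the median protein-coding transcript, Mrpl52 came to 104 CPM per kb, Mrpl20 to 98.4, Mrpl11 to 84.5, Mrpl42 to 78.5, Mrpl41 to 77.1, Mrpl34 to 72.2 and Mrps21, again first of the small subunit, to 70.0. Of the members just named, Mrpl52, Mrpl20, Mrpl11 and Mrpl12 fell, and Mrpl34, Mrpl41, Mrpl42 and Mrps21 did not pass. Mrpl34 had 46.6, 54 and 41.1 CPM in control and 41.4, 43.2 and 36.8 CPM in NFIAcKO libraries (log2 fold change -0.22, SE 0.10, adjusted p = 0.162). Mrpl41 had 48.1, 61.0 and 41.8 CPM against 35.2, 45.8 and 40.2 CPM (-0.32, SE 0.13, adjusted p = 0.129, and 0.0485 with the replicate block). Mrps21 had 29.9, 35.1 and 27.6 CPM against 23.8, 28.1 and 25.5 CPM (-0.26, SE 0.11, adjusted p = 0.124). In each of these the highest NFIAcKO library overlapped the lowest control.

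Over all members together, the libraries differed in a graded way. Summed over the 75 members, the level was 2592, 2912 and 2412 CPM in control and 2151, 2296 and 2147 CPM in NFIAcKO libraries. Replicate 2 was the highest of its group in both. The median member lay 0.11, 0.29 and 0.01 above its mean over the 6 libraries (log2 scale) in control replicates 1, 2 and 3, and 0.16, 0.07 and 0.16 below it in NFIAcKO replicates 1, 2 and 3. The summed large subunit stood to the summed small subunit as 2.34, 2.42 and 2.25 in control and 2.26, 2.25 and 2.19 in NFIAcKO libraries, ranges that overlap. The numbers in the deposited file names give a further split whose meaning is not stated. Under the number that replicates 1 and 2 of each group share the median member difference was -0.32 with 72 of 75 members lower, and under that of replicate 3 of each group it was -0.17 with 67 of 75 lower, beside 51.3% and 51.4% of all tested genes.

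A gradient with gene length ran through the same libraries. Over all tested genes, the level changed with each doubling of summed exonic length by -0.06, -0.12 and -0.02 on the log2 scale in control replicates 1, 2 and 3 and by 0.07, 0.04 and 0.09 in NFIAcKO replicates 1, 2 and 3. The libraries with the steepest negative slopes are those with the highest member levels, as the plot of members and slopes by library shows. The members are short: their median protein-coding transcript had 1134 bases at the median, against 2084 over all tested genes. Split into 8 equal classes of median transcript length, 12.2% and 14% of all genes in the shortest classes fell against 0.595% in the longest. The members that fell numbered 10 of 22 and 10 of 17 in the 2 shortest classes, 4 of 14, 4 of 5 and 2 of 7 in the next 3 (backgrounds 8.47%, 6.04% and 3.34%), and 0 of 10 in the 3 longest (backgrounds 2.56%, 1.51% and 0.595%). Across the 75 members, log2 fold change and transcript length had a Spearman correlation of 0.40, given as a description since the members share the libraries.

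**Figure D3:**
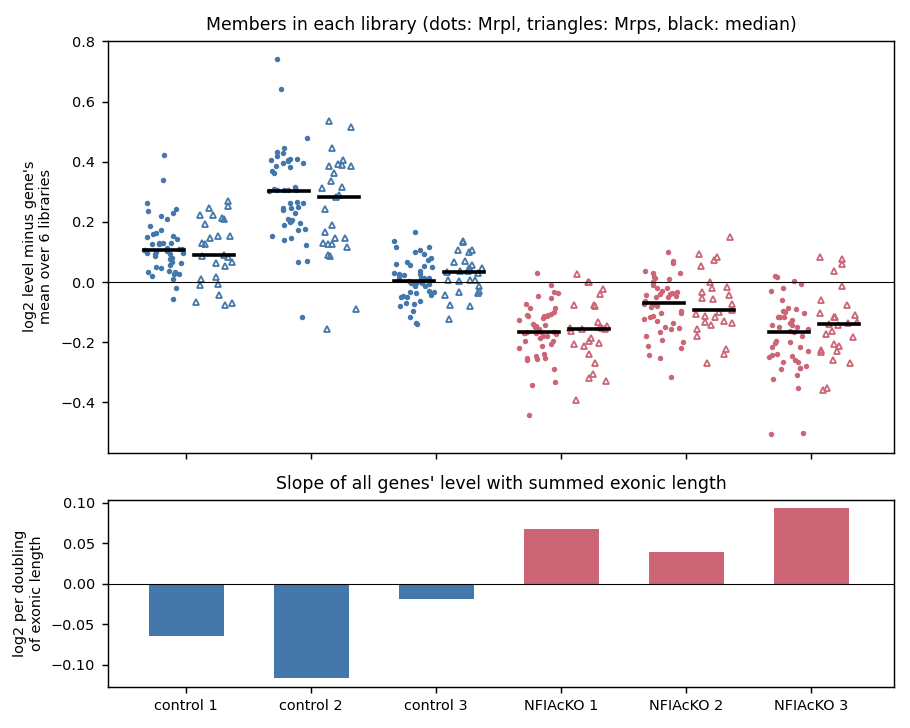
Top, log2 level of each member minus its mean over the 6 libraries (dots large subunit, triangles small subunit, black bars medians); bottom, slope of all genes' log2 level per doubling of summed exonic length. Control replicate 2 has the highest members (median 0.29) and the lowest slope (-0.12), and the 3 NFIAcKO libraries have member medians below 0 and slopes above 0.

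**Figure D4:**
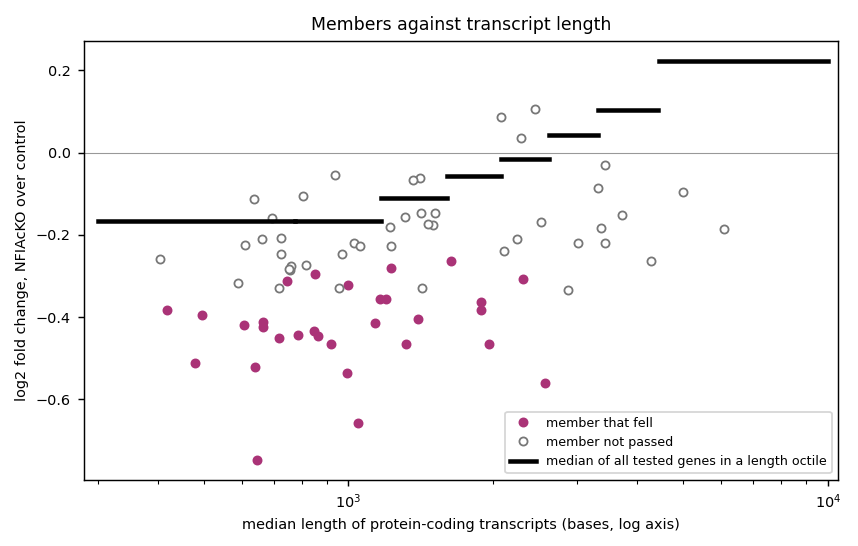
Log2 fold change of each member (y axis) against the median length of its protein-coding transcripts (x axis, log scale), with the median of all tested genes in each of 8 length classes as black bars, the first and last drawn to the edge of the axis. Of the 75 members, 66 lie below the bar of their class, and 35 of 39 in the 2 shortest classes.

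With a trend of level with summed exonic length and GC content removed from each library, 15 members fell and 0 rose, beside 3.88% of all genes that fell and 3.83% that rose. They were 10 large subunit members (median over the subunit -0.14) and 5 small subunit members (median -0.17), and 12 of the 30 earlier calls were among them. Summed exons overstate some transcripts: Mrpl48 has 8152 bases of annotated exons but a median transcript of 865. With the median transcript length instead, a fit chosen after seeing the data, 11 members fell, 6 large and 5 small, beside 3.8% of all genes, and the medians were -0.20 and -0.14. Mrpl11, Mrpl12, Mrpl28, Mrpl3, Mrpl48, Mrps16 and Mrps7 fell in all 3 fits. Their log2 fold changes in the last fit were -0.26 for Mrpl11, -0.41 for Mrpl12, -0.59 for Mrpl28, -0.28 for Mrpl3, -0.29 for Mrpl48, -0.58 for Mrps16 and -0.46 for Mrps7, with adjusted p from 0.0143 (Mrps16) to 0.0492 (Mrpl48). Mrps26 fell in both trend fits but not as counted. It had 35, 34.5 and 33.9 CPM in control and 29.9, 28.7 and 27.7 CPM in NFIAcKO libraries, even groups without overlap, and a median transcript of 4278 bases (as counted -0.26, SE 0.09, adjusted p = 0.0548, and -0.42 with adjusted p = 0.0114 in the last fit). By class, the calls with summed exons were 9 of 29 large homologues and 1 of 21 large mitochondria-specific members. In the small subunit they were 3 of 15 homologues and 2 of 9 mitochondria-specific members. With the transcript length the calls were 4 of 29 and 2 of 21 in the large and 3 of 15 and 2 of 9 in the small subunit. The classes' median transcripts had 998 and 1398 bases in the large and 995 and 1366 bases in the small subunit.

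**Figure D5:**
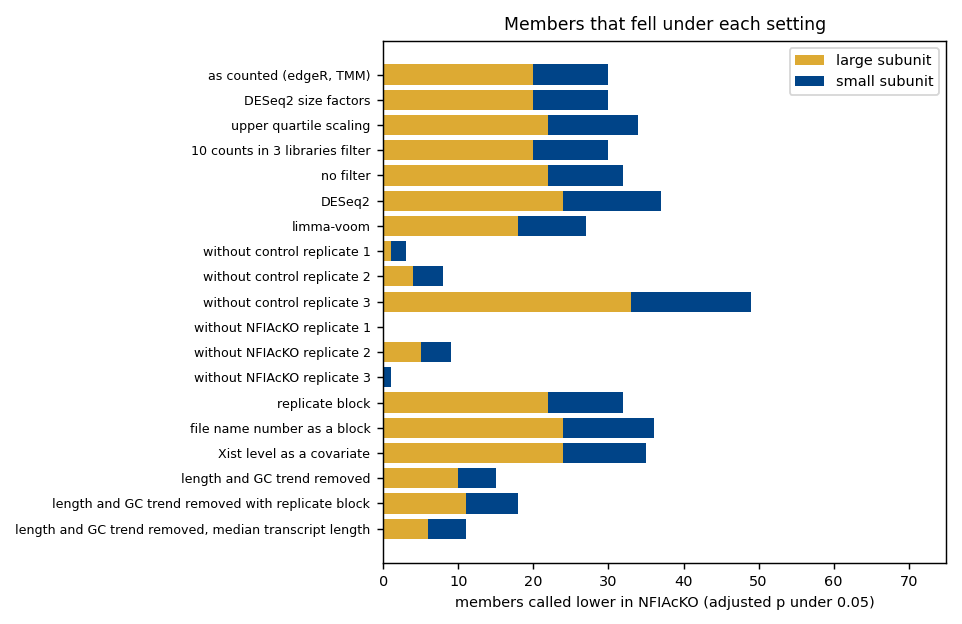
Number of members called lower in NFIAcKO (x axis, of 75) under each way of fitting, large subunit in yellow and small subunit in blue. The count is 30 as counted, 0 to 49 with 1 library left out, and 15, 18 and 11 in the 3 fits with a length and GC trend removed.

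The other genes of the mitochondrial translation system were read for comparison. Of 5 ribosomal proteins with other names, Chchd1, a small subunit protein, fell. It stood at 47.2, 55.7 and 37.2 CPM in control and 31.7, 35.1 and 30.7 CPM in NFIAcKO libraries, without overlap (-0.52, SE 0.12, adjusted p = 0.0162). Aurkaip1 was at -0.32 (adjusted p = 0.0506, and 0.0402 with the replicate block), Gadd45gip1 at -0.27 (0.172), Ptcd3 at -0.24 (0.117) and the GTP-binding Dap3 at -0.20 (0.0854), and none of these 4 passed. Of 27 assembly and rRNA modification genes, 2 fell and 0 rose (median -0.21). These were Fastkd2, which acts on the mitochondrial large rRNA (-0.44, adjusted p = 0.0261), and Ngrn, an rRNA regulator (-0.37, adjusted p = 0.0285). Of 13 translation factors 0 passed in edgeR, DESeq2 or limma-voom, with 2 lower and 0 higher at an unadjusted p under 0.05 (median -0.13), and of 20 mitochondrial tRNA synthetase genes only Hars2 passed (-0.37, adjusted p = 0.0343, median of the list -0.13). None of these calls held in every fit. Those of Chchd1, Fastkd2 and Hars2 were lost in 5 other fits each and that of Ngrn in 8 (adjusted p up to 0.198 for Ngrn). These 4 lists together had 4 of 65 genes that fell, or 6.15%, beside the 6.08% of all genes. That count depended on the fit: 12 fell (18.5%) with DESeq2 or upper quartile scaling, beside 8.31% and 8.1% of all genes, 8 (12.3%) with the summed exon trend removed, beside 3.88%, and 7 (10.8%) with the replicate block, beside 6.32%. Their log2 fold changes were below 0 in 53 of 65 with a median of -0.19, and in 24 of 65 every NFIAcKO library lay below every control library, beside 16.1% of all genes. That the members and these partners differ in share was not tested.

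The RNAs of the ribosome were measured less surely, since mRNA libraries select for poly(A) tails. mt-Rnr1, the small rRNA, had 565, 662 and 366 CPM in control and 405, 398 and 436 CPM in NFIAcKO libraries, and mt-Rnr2, the large rRNA, 815, 1010 and 503 against 567, 578 and 570 CPM. Control replicate 3 was below all NFIAcKO libraries in both genes, and neither passed (-0.36, adjusted p = 0.246, and -0.44, adjusted p = 0.278). Without that library the adjusted p was 4.62e-05 and 1.37e-05, and with the first trend removed the log2 fold change was 0.13 and -0.01. Of the 13 mitochondrially encoded mRNAs, the templates of the ribosome, 6 were listed at 0 and 7 were tested. Why the 6 were at 0 was not tested. As counted 0 of 7 passed in edgeR, DESeq2 or limma-voom (median 0.15, 1 higher and 0 lower at an unadjusted p under 0.05), while 6 rose with the summed exon trend removed and 5 with the transcript trend removed, beside 3.83% and 4.92% of all genes. Among 15 genes of mitochondrial transcription and biogenesis, Tefm, the mitochondrial elongation factor, fell (-0.49, adjusted p = 0.0258) and the coactivators Ppargc1a (0.34, adjusted p = 0.049) and Pprc1 (0.39, adjusted p = 0.0155) rose. That is 6.67% of the list lower and 13.3% higher, beside 6.08% and 7.86% of all genes. The call of Tefm was lost in 8 of 18 other fits (adjusted p up to 0.264), and 0 of the 15 genes fell with the transcript trend removed. Both rises depended on the fit too. The call of Ppargc1a was lost in 7 of the 18 (adjusted p up to 0.236). Among these were limma-voom, upper quartile scaling and 4 of the 6 fits without a library. The call of Pprc1 was lost in 5 of the 6 fits without a library (up to 0.0852). Nrf1 itself was at 0.05 (adjusted p = 0.716) and Gabpa, the DNA-binding part of the GA-binding protein, at 0.15 (adjusted p = 0.297).

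For scale, 59 of 79 cytosolic ribosomal protein genes fell (median -0.47) and 25 of 35 nuclear genes of complex I (median -0.41). The share of all genes was 6.08%. With the first trend removed, 39 and 9 fell, beside 3.88% of all genes. With the transcript length trend 46 and 14 fell, beside 3.8%. With 1 library left out, the counts ran from 16 to 67 and from 3 to 31. The lowest were without NFIAcKO replicate 3 (0.824% of all genes) and the highest without control replicate 3 (13.55%). Both lists also hold short genes, with median transcripts of 696 and 651 bases. Microglia markers moved in the same direction, at 98.9 to 108 CPM summed in control and 75.05 to 84.2 CPM in NFIAcKO libraries. Of the 7 tested 3 fell, beside 6.08% of all genes, and Trem2 was at 0. That count was 1 with the first trend removed and 3 with the transcript length trend, beside 3.88% and 3.8% of all genes. It was 0 without control replicate 1 and 5 without control replicate 3, beside 1.21% and 13.55%. Summed neuron markers moved in the other direction, at 5896 to 6307 CPM in control and 6824 to 7071 CPM in NFIAcKO libraries. Of the 5 neuron markers Dcx and Elavl3 rose (0.45 and 0.40), while Stmn2 was at -0.13 and Snap25 at -0.05, and the median was 0.05. Summed endothelium and pericyte markers did not overlap either, at 475 to 494 CPM in control and 506 to 527 CPM in NFIAcKO libraries. Of these 7, 4 rose (among them Cdh5 by 0.55 and Kdr by 0.49), beside 7.86% of all genes, and Cldn5 fell by 0.30. With the replicate block 2 of the 7 rose. Summed erythroid markers overlapped, at 1886 to 2140 and 1672 to 2300 CPM. Summed progenitor markers overlapped too, at 2283 to 2467 and 2176 to 2445 CPM (2 of 5 fell and 1 rose). Proliferation markers also overlapped, at 171 to 266 and 241 to 311 CPM (1 of 4 rose). Beside these counts, 6.08% of all genes fell and 7.86% rose. The part of the cell type markers in the members' result was not tested.

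The members are spread over 17 chromosomes, with 10 on chromosome 11 and 7 on chromosome 17. Exons of 32 members overlap another annotated gene, 7 of them on the same strand. As the strand setting of the counting is not given, the counts of these 32 are uncertain. Of the 43 members without such an overlap 15 fell, as did 15 of the 32 with it. A start within 500 bases of the start of a protein-coding gene on the other strand, a head-to-head pair, was found for 25 of 75 members (33.3%) and for 12% of tested protein-coding genes. Of their 23 tested partners that are not members, Psma2 (a proteasome subunit) and Fau (a cytosolic ribosomal protein) fell and Ppp1r10 rose. These shares, 8.7% and 4.35%, stand beside 6.08% and 7.86% of all tested genes, and the partners' median log2 fold change was 0.02. Mrps7, which fell by 0.47, faces Gga3, an adaptor of Golgi sorting, which was at 0.27 (adjusted p = 0.0623). Mrpl46 and Mrps11 face each other across 412 bases and share exonic bases on opposite strands. Mrpl46 had 26.9, 30.5 and 22.2 CPM in control and 19.3, 19.7 and 20.8 CPM in NFIAcKO libraries and fell by 0.41 (SE 0.12, adjusted p = 0.0308). Mrps11 had 19.2, 21.1 and 15.8 CPM against 17.2, 15.9 and 14.9 CPM, which overlap, and was at -0.23 (SE 0.12, adjusted p = 0.226).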

How the data were processed

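The authors deposited 1 file of whole-number counts per gene for each of 6 libraries, made from stranded mRNA preparations of RNeasy-purified RNA, per the labels' protocols. HTSeq, DESeq2 and STAR 2.6.1a and, as the build, mm10 are listed in the submitters' processing notes, with no role for each. For the annotation release and strand setting of the counting, nothing is given in the sources used here. The 5 summary lines stayed out of library sizes and tests.

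Counts were analysed in edgeR 4.0.16 (R 4.3.3): filterByExpr, TMM scaling, robust quasi-likelihood F test of all 6 libraries without covariates, and Benjamini-Hochberg adjustment over 17711 genes at a threshold of 0.05. CPM are TMM-scaled, except that the limit for a count of 0 uses plain library totals. The SE was taken from the F statistic, as the size of the log2 fold change divided by the root of F, and the biological coefficient of variation was 11.5%. Libraries of 1 group differed beyond sampling noise (chi-square per degree of freedom 11.9 to 50.2), so all were kept. Labels give separate embryos but no litters, so p-values measure the spread between these samples.

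Alternatives were DESeq2 1.42.0, limma-voom (limma 3.58.1), other scalings and filters, each library left out, blocks by replicate number and by file name number, an Xist covariate, and offsets from natural splines (5 degrees of freedom, genes with a mean log2 CPM over 1) of exonic length and GC content from GENCODE M21 (GRCm38). Same-numbered libraries deviated together from their group means (correlations 0.353, 0.398 and 0.193 over 13122 genes), and libraries of unlike number had correlations from -0.327 to 0.0888. On this evidence from the data the numbers were taken as pairs in the fits with a replicate block only, and the main test was unpaired. File name number and Xist also differ between replicate numbers, so what the pairs reflect was not tested. The procedure was tested on simulated data.

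The members and all lists were chosen with earlier results of these data known. Values per library were given by rule for the 6 members of each subunit with the smallest p, the 2 with the smallest fall or a rise, the 2 highest per exonic length, and the Mrps18 genes. Mrpl14, Mrpl28, Mrpl3, Mrpl43, Mrpl46, Mrps11, Mrps22 and Mrps26, and the head-to-head partners, were added after their values were seen. No protein sequences were used here.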

Additional observations from a re-analysis of the deposited data

How the results depend on the processing

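With 3 libraries a group, the direction of the members was steadier than their number of calls when 1 library was left out. Of the 75 log2 fold changes, 72 were below 0 as counted, 61 with the summed exon trend removed and 67 with the transcript length trend removed. With 1 library left out, the large subunit had 0 to 33 members that fell and the small subunit 0 to 16, all genes 139 to 2466 that fell and 282 to 2703 that rose, and the partner genes of the 4 lists 0 to 21 that fell. DESeq2 size factors, upper quartile scaling, the filter of 10 counts in 3 libraries, no filter, DESeq2, limma-voom, the file name block and the Xist covariate gave 27 to 37 members that fell and 0 that rose. The replicate block gave 22 large and 10 small subunit members that fell and changed 4 members' calls (Mrpl9 lost, and Mrpl13, Mrpl41 and Mrpl44 gained). Partner genes that fell moved from 4 to 12 with upper quartile scaling or DESeq2 (18.5%, beside 8.1% and 8.31% of all genes), 9 with no filter or the Xist covariate (13.6% and 13.8%, beside 4.58% and 6.99%), 7 with the replicate block (10.8% beside 6.32%) and 10 with the file name block (15.4% beside 7.97%), so their share near that of all genes held in edgeR as counted and in limma-voom but not in these fits. Over all genes, upper quartile scaling turned the split from 1076 that fell and 1392 that rose to 1434 and 1057.

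With the summed exon trend removed, 10 large and 5 small subunit members, 688 of all genes and 8 partner genes fell, 678 of all genes and 1 partner gene rose, and the large subunit's median was -0.14. With that trend and the replicate block, 11 large subunit members and 7 partner genes fell, 710 of all genes and 1 partner gene rose, and that median was -0.13. With the transcript length trend, added after seeing the data, 6 large and 5 small subunit members and 673 of all genes fell, 872 rose, and the small subunit's median was -0.14.

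None of the 30 members that fell as counted changed sign in any of these fits. Of those that did not pass, Mrpl39 went to -0.0044 with upper quartile scaling and ranged from -0.023 (control replicate 2 left out) to 0.073 (NFIAcKO replicate 1 left out), with -0.0058 when NFIAcKO replicate 2 was left out. Mrpl51 ranged from -0.073 to 0.0067 over the 6 fits without a library. With the summed exon trend removed, without and with the block, Mrpl51 came to 0.033 and 0.033, Mrpl34 to 0.022 and 0.023, Mrps21 to 0.040 and 0.039, Mrps18b to 0.046 and 0.049, Mrpl50 to 0.031 and 0.030, Mrps36 to 0.157 and 0.156, and mt-Rnr1 to 0.125 and 0.132, while mt-Rnr2 came to 0.0062 with the block. With the summed exon trend removed and no block, Mrpl18 (0.058), Mrpl22 (0.073), Mrpl49 (0.035), Mrps15 (0.103) and Mrps27 (0.090) also came above 0. With the transcript length trend Mrps18b was at 0.025, Mrps36 at 0.046, Mrps9 at 0.030, Mrps15 at 0.044 and Mrps27 at 0.014. The causes of these moves were not tested.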
